A study of Mus musculus with 12 samples.

Results

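The glycolysis and hypoxia genes described here are 10 genes of glucose use and the response to low oxygen: Slc2a1, Aldoa, Gapdh, Pgk1, Pgam1, Eno1, Ldha, Pdk1, Car9 and Vegfa. They were chosen by gene name, with earlier results of these data known. They fill 11 rows, because the name Aldoa stands on 2 rows. Each table of cultured cells holds 56061 rows and each table of tumors 55878. All 11 rows passed the filter on low values, a group mean of 1 TPM or more in at least 1 of the groups compared. TPM is a share of the transcripts of a library, corrected for transcript length, so it can be compared between genes. RNA was sequenced from HM1, an ovarian cancer line of the mouse, in 4 groups of 3 libraries each, 12 in all. Tumors of HM1 carrying a short hairpin RNA against St3gal3 (knockdown tumors) are set against tumors of HM1 with a control hairpin (control tumors), and the same lines grown in culture give knockdown culture and control culture libraries. The labels call the genotypes ST3GAL3 knockdown and wild type. They name no strain, host, age, time or further treatment, and are silent on whether a line is 1 clone and whether replicates are separate cultures or mice. The p-values therefore rest on a spread between libraries that may be technical alone.

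St3gal3, the targeted gene of a sialyltransferase that caps glycans with sialic acid, was lower in all 3 knockdown libraries of each tissue without overlap, with a log2 change of -1.13 in tumors (SE 0.11, limma adjusted p = 0.00954) and -2.32 in culture (SE 0.16, limma adjusted p = 0.00689). The library depth is unknown, because TPM keeps none. Of markers for the labelled cell type, Krt8, Krt18 and Krt19 were abundant in every library and Epcam, Muc16 and Pax8 stood below 1 TPM in all 12. Tumors also hold host cells. Summed leukocyte markers reached 1120 to 1366 TPM in knockdown tumors and 1240 to 1396 TPM in control tumors, against 39.2 to 42.7 TPM in knockdown culture and 37.4 to 41.3 TPM in control culture. Summed fibroblast markers reached 920 to 1405 TPM in knockdown tumors and 1284 to 1744 TPM in control tumors, and at most 1.98 TPM in culture. In such bulk samples, fewer cells of a type and less RNA per cell cannot be told apart.

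Glycolysis splits glucose into pyruvate in the cytosol, and lactate dehydrogenase can turn that pyruvate into lactate. Many tumor cells send much of their glucose down this path even with oxygen at hand. When oxygen is short, prolyl hydroxylases no longer mark the alpha subunits of the hypoxia-inducible factors for destruction. The stabilised alpha subunit pairs with Arnt and binds short DNA elements at genes for glucose transport, glycolysis, pH control and vessel growth, and all 10 genes described here are known as such targets from work on other cells.

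The hypoxia response element has the core ACGTG or GCGTG. Both cores were searched on both strands in the 250 bases before the start site that lies farthest upstream in RefSeq (build GRCm38.p6, while the deposited tables use GRCm39). Of the 10 genes, 8 had at least 1 match, against 38.6% of 27025 genes with a window of that length (16.5% for ACGTG and 28.3% for GCGTG). Aldoa and Vegfa had none in this window, which depends on the start site taken. The windows before start sites 2 and 3 of Aldoa held 1 match each, and that before start site 2 of Vegfa held 2. Start site 2 of Pdk1 had none. These further sites are not in the counts above. A match is a description of letters and shows no binding, and the absence of one says nothing about the factor. The windows of the 3 genes that were higher in tumors without overlap in both lines are shown beside that of Ldha, which was not and whose window held 5 matches in 3 places, because CACGTG reads as ACGTG on both strands. Capitals mark the matches. They lie at chr4:119108495-119108744 on the plus strand (Slc2a1), chr4:43506776-43507025 on the plus strand (Car9), chr17:46032378-46032627 on the minus strand (Vegfa) and chr7:46845554-46845803 on the plus strand (Ldha).
Slc2a1: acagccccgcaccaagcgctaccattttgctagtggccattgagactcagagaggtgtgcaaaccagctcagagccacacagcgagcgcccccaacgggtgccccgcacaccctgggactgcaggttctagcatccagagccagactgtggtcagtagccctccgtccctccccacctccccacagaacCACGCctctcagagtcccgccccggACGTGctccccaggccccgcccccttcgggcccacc
Car9: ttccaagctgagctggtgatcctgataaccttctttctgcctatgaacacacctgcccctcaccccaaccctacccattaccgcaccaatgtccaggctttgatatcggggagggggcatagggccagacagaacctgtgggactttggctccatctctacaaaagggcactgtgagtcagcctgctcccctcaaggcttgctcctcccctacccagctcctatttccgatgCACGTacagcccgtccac
Vegfa: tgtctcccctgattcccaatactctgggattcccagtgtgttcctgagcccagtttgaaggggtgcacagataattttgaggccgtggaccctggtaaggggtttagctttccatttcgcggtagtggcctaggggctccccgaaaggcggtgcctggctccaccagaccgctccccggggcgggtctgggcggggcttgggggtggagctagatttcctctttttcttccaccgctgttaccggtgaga
Ldha: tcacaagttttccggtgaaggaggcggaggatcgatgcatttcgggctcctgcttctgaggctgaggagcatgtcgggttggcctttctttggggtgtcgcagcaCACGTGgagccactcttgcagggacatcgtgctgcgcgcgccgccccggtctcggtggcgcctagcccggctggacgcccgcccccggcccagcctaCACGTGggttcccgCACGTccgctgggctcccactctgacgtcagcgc

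The 6 glycolytic enzymes were among the more abundant messages, and the transporter, the kinase, the anhydrase and the growth factor stood below them. In knockdown tumors the order by mean was Gapdh (3343 TPM), Ldha (2027 TPM), Aldoa (1494 TPM), Pgk1 (1198 TPM), Pgam1 (629 TPM), Eno1 (452 TPM), Slc2a1 (194 TPM), Vegfa (128 TPM), Pdk1 (46.4 TPM) and Car9 (7.77 TPM). The order was the same in the other 3 groups. Slc2a1 and Vegfa overlapped in every group, and in culture Aldoa also overlapped with Pgk1 and Vegfa with Pdk1. Other neighbours in the order did not overlap within a group. The second row named Aldoa (ENSMUSG00000114515) was listed at 1.50 to 2.73 TPM in knockdown tumors and 1.48 to 2.60 TPM in control tumors, against 3.14 to 5.06 TPM in knockdown culture and 2.62 to 5.89 TPM in control culture. Its share of reads with the main row is uncertain. The 11 rows together held 0.926 to 0.992% of all TPM in knockdown tumors and 1.02 to 1.09% in control tumors. They held 0.864 to 1.07% in knockdown culture and 0.918 to 1.18% in control culture.

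**Figure D1:**
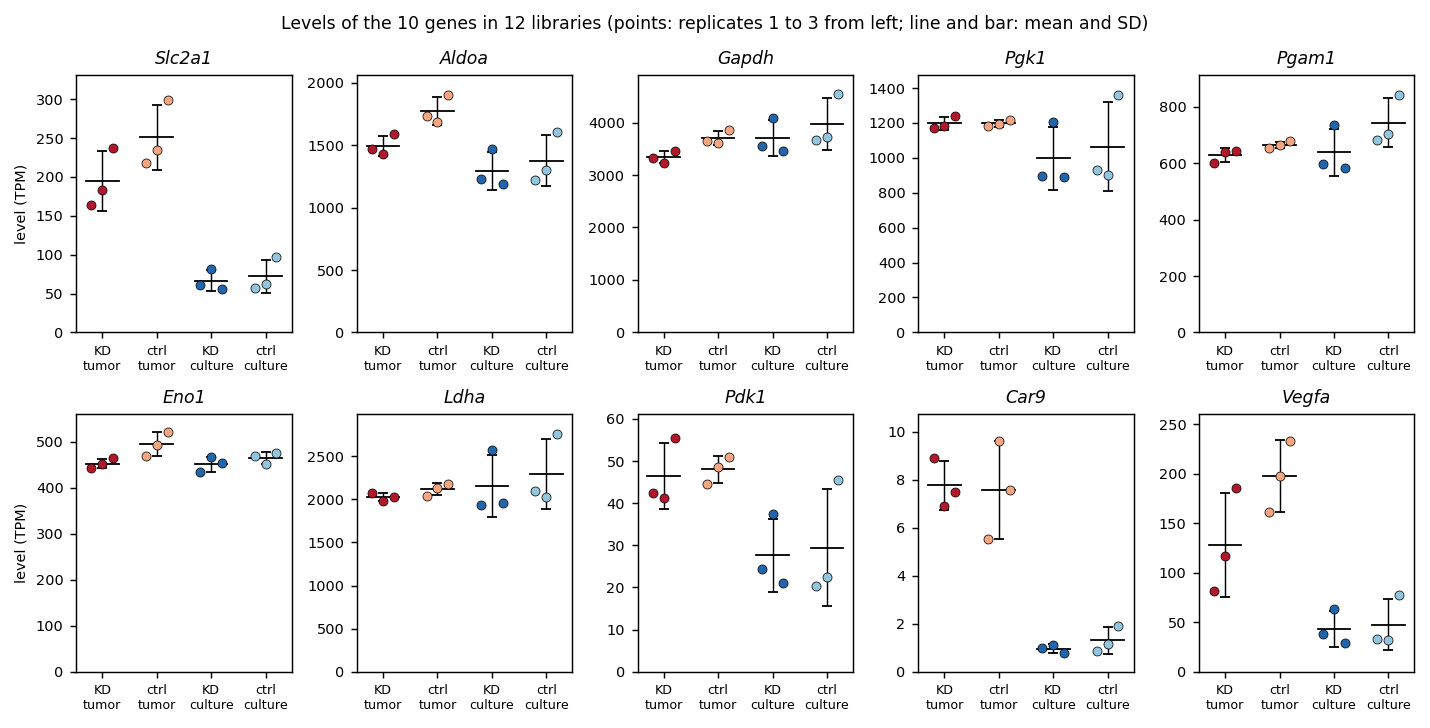
Level (TPM, from 0) of the 10 genes in each of 12 libraries, with knockdown tumors, control tumors, knockdown culture and control culture from left to right, points for replicates 1 to 3, and a line and bar for the mean and SD. Slc2a1, Car9 and Vegfa stood higher in all tumors than in all culture libraries, while Gapdh, Ldha and Eno1 overlapped between them.

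Tumors were first set against culture of the same line, since the lines were measured in both settings. The tables of cells and tumors were normalized separately, so these differences are given with no test. Slc2a1, Car9 and Vegfa were the 3 of 11 rows that were higher in tumors without overlap in both lines, against 35.0% of all 15381 genes. The same 3 were higher by at least 1 on the log2(TPM + 1) scale in both lines, against 14.9% of genes, and 0 of 11 were lower by as much, against 6.48%. Only the second Aldoa row was lower without overlap in both lines, against 23.1% of genes. The median difference of the 11 rows was 0.21 in the knockdown line and 0.20 in the control line, and that of all genes was 0.09 and 0.18. Of these 4 counts, that of rows higher by at least 1 lay above its background, and the other three lay below theirs. The control-line median rested on single libraries: it was 0.39 without control culture 3, 0.11 without control culture 1 and 0.09 without control culture 2, where that of all genes was 0.21, 0.13 and 0.19. Knockdown culture 2 and control culture 3 were the highest of their groups for 11 of 11 rows. Without both, Pdk1, Aldoa and Pgk1 joined Slc2a1, Car9 and Vegfa as higher without overlap in both lines. That made 6 of 11 rows, against 38.6% of genes. Leaving out libraries picked as the highest for these rows favours a higher count for them, so this share is not weighed against its background.

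Slc2a1 (ENSMUSG00000028645) encodes GLUT1, the carrier that lets glucose into most cells. It had 163, 183 and 237 TPM in knockdown tumors, against 60.6, 81.6 and 56.2 TPM in knockdown culture. It had 218, 235 and 299 TPM in control tumors, against 57.0, 62.4 and 96.9 TPM in control culture. Every tumor was higher than every culture library, and replicate 3 was the highest in both kinds of tumor. The log2 difference was 1.54 (SE 0.23) in the knockdown line and 1.81 (SE 0.27) in the control line, ratios of 2.94 and 3.48 between the means. Slc2a1 made up 89.0 to 90.8% of the summed TPM of the 8 glucose carriers listed here in knockdown tumors and 90.9 to 91.6% in control tumors, against 86.9 to 88.7% in knockdown culture and 87.0 to 88.6% in control culture.

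Car9 (ENSMUSG00000028463) encodes a carbonic anhydrase on the cell surface that helps tumor cells export acid. It had 8.90, 6.91 and 7.51 TPM in knockdown tumors, against 1.00, 1.12 and 0.77 TPM in knockdown culture. It had 5.55, 9.64 and 7.57 TPM in control tumors, against 0.85, 1.15 and 1.92 TPM in control culture. It was low everywhere but several-fold higher in each tumor than in any culture library, and the 2 kinds of tumor overlapped. The log2 difference was 2.16 (SE 0.12) in the knockdown line and 1.89 (SE 0.28) in the control line. The pseudocount of 1 TPM makes these understate the change of so low a gene, whose means had ratios of 8.07 and 5.81.

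Vegfa (ENSMUSG00000023951) encodes the growth factor that draws new blood vessels to a tissue. It had 82.0, 117 and 185 TPM in knockdown tumors, against 38.0, 63.6 and 28.8 TPM in knockdown culture. It had 161, 198 and 233 TPM in control tumors, against 33.0, 31.9 and 77.5 TPM in control culture. Tumors and culture did not overlap in either line, and the nearest pair was knockdown tumor 1 and knockdown culture 2. The log2 difference was 1.54 (SE 0.47) in the knockdown line and 2.14 (SE 0.44) in the control line, with ratios of 2.95 and 4.16.

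Pdk1 (ENSMUSG00000006494) encodes a kinase that blocks pyruvate dehydrogenase and so keeps pyruvate out of the mitochondrial cycle. It had 42.5, 41.3 and 55.4 TPM in knockdown tumors, against 24.4, 37.5 and 21.0 TPM in knockdown culture. It had 44.5, 48.7 and 50.9 TPM in control tumors, against 20.3, 22.6 and 45.6 TPM in control culture. Pdk1 thus joined the other 3 genes in the knockdown line alone, where 4 of 11 rows were higher without overlap, against 39.0% of genes, and 1 lower, against 28.5%. In the control line, where 4 of 11 were higher, against 42.7% of genes, and 2 lower, against 26.0%, control culture 3 reached into the range of the control tumors. The log2 differences were 0.76 (SE 0.28) and 0.78 (SE 0.36). Pdk3, a related kinase, made up 24.7 to 28.4% of the summed TPM of the 4 kinases in knockdown tumors and 23.6 to 24.0% in control tumors, against 30.0 to 44.0% in knockdown culture and 28.4 to 43.9% in control culture.

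The 6 glycolytic enzymes differed far less between tumors and culture. Aldoa (ENSMUSG00000030695), the aldolase that splits the sugar bisphosphate, had the largest positive difference in the control line, 0.37 (SE 0.13), where the groups did not overlap, and 0.21 (SE 0.10) with overlap in the knockdown line. Pgk1 (ENSMUSG00000062070), the first ATP-making step of the path, differed by 0.28 (SE 0.15) and 0.20 (SE 0.19) in the knockdown and control lines with overlap in both. Gapdh (ENSMUSG00000057666), the oxidising step, differed by -0.14 (SE 0.08) and -0.10 (SE 0.10), and Ldha (ENSMUSG00000063229), which makes lactate, by -0.07 (SE 0.14) and -0.10 (SE 0.14). Pgam1 (ENSMUSG00000011752), the mutase, was lower without overlap in control tumors (-0.15, SE 0.10) and overlapped in the knockdown line (-0.02, SE 0.11). In size, these differences were well below those of Slc2a1, Car9 and Vegfa.

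Eno1 (ENSMUSG00000063524), the enolase, differed least between tumors and culture in both lines, with 443, 450 and 464 TPM in knockdown tumors, against 433, 466 and 453 TPM in knockdown culture. It had 469, 492 and 521 TPM in control tumors, against 468, 450 and 475 TPM in control culture. The groups overlapped in both lines. Its near-identical copy Eno1b, which is not among the 10 genes, was listed with more than Eno1 in every library: 605, 567 and 605 TPM in knockdown tumors and 712, 723 and 720 TPM in control tumors, against 959 to 1096 TPM in knockdown culture and 997 to 1218 TPM in control culture. How reads were split between the copies is uncertain, so the level of Eno1 alone is uncertain too. Eno3, the enolase of muscle, was listed at 243 to 274 TPM in knockdown tumors and 224 to 260 TPM in control tumors, against 566 to 639 TPM in knockdown culture and 593 to 676 TPM in control culture, where the 14 skeletal muscle markers together came to 5.50 TPM at most. With Eno1, Eno1b, Eno2 and Eno3 summed, Eno1 made up 32.3 to 33.6% in knockdown tumors and 31.9 to 33.5% in control tumors, against 20.5 to 21.9% in knockdown culture and 20.4 to 21.9% in control culture.

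For the other enzymes 1 gene carried nearly all of its family. Ldha made up 99.8 to 99.9% of the summed TPM of Ldha, Ldhb and Ldhc in both kinds of tumor and at least 99.98% in culture. Ldhb, the form that favours the way from lactate to pyruvate, had 3.29, 2.06 and 3.54 TPM in knockdown tumors and 2.17, 2.67 and 2.82 TPM in control tumors, against at most 0.25 TPM in knockdown culture and 0.51 TPM in control culture.
Pgam1 made up at least 99.7% of Pgam1 and Pgam2 in every library, and Pgk2, the form of sperm cells, was listed at 0 in all 12. Aldoa made up 96.9 to 97.3% of the aldolases in knockdown tumors and 97.3 to 97.7% in control tumors, against 98.5 to 99.2% in knockdown culture and 98.0 to 99.4% in control culture, and nearly all of the rest was Aldoc. Ldhb and Pgk2 were singled out after their values were seen.

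**Figure D2:**
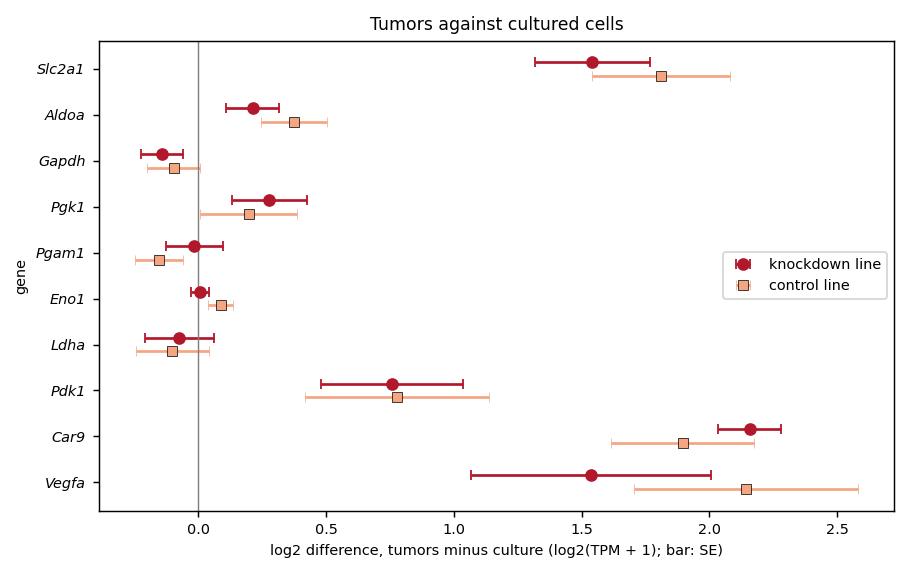
Difference between tumors and culture in log2(TPM + 1), tumors minus culture, for the 10 genes (circles, knockdown line; squares, control line; bars, SE). Slc2a1, Car9 and Vegfa lay above 1 in both lines, Pdk1 between 0.76 and 0.78, and the 6 enzymes between -0.15 and 0.37.

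Genes of the same pathways were counted from lists of their known functions, by whether they were higher or lower in tumors without overlap in both lines, against 35.0% of all genes higher and 23.1% lower. Genes of a list are named by the size of their difference in the control line, and their order in the knockdown line can differ. Among 29 other hypoxia-inducible genes past the filter on low values, 21 were higher and 2 lower, with a median log2 difference of 1.49 in the knockdown line and 1.59 in the control line. The 3 with the largest differences on the same side in both lines were Egln3, a prolyl hydroxylase that is itself induced by low oxygen (3.94 and 3.80), the peptide Adm (3.63 and 3.21) and the stress-response gene Ndrg1 (2.81 and 2.78). Adm was at 8.49, 12.8 and 13.6 TPM in knockdown tumors and 9.68, 7.26 and 9.76 TPM in control tumors, against 0 in all knockdown culture and at most 0.15 TPM in control culture. Adm and Egln3 stood near 0 in culture, where Ndrg1 was already present at 45.3 TPM or more.

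Of 19 other glycolytic enzymes 8 were higher and 2 lower, against the same 35.0% and 23.1% of all genes. The higher ones included Hk3, a hexokinase of white blood cells (3.91 in the knockdown line and 3.15 in the control line), Pfkfb3, which makes an activator of phosphofructokinase (2.19 and 2.01), and the aldolase Aldoc (1.68 and 1.63). Of 9 glucose and lactate transporters 6 were higher and 1 lower, again beside 35.0% and 23.1%. Slc16a3, the lactate exporter MCT4, had 56.0, 55.8 and 67.4 TPM in knockdown tumors and 42.1, 52.5 and 48.1 TPM in control tumors, against 0.33, 2.28 and 0.13 TPM in knockdown culture and 0.16, 0.13 and 0.43 TPM in control culture, a difference of 5.15 and 5.29. The glucose carriers Slc2a3 (2.61 and 2.76) and Slc2a6 (1.28 and 1.25) followed. Of 12 genes for pyruvate entry into mitochondria 1 was higher and 6 were lower, against 35.0% and 23.1% of all genes, among the lower ones Pdhx, a structural part of pyruvate dehydrogenase (-0.97 and -1.05), and the carrier subunit Mpc2 (-0.47 and -0.63), while the kinase Pdk2 was higher (1.31 and 1.26).

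Of 15 genes of the hypoxia-inducible factor machinery 7 were higher and 2 lower without overlap in both lines, against 35.0% and 23.1% of all genes. Besides Egln3 they included Arnt2, a partner subunit (0.68 in the knockdown line and 1.73 in the control line), and Epas1, which encodes HIF-2alpha (1.20 and 1.50). In the knockdown line Arnt2 differed less than Epas1, Vhl (0.93), Egln1 (0.91) and Arnt (0.84). Of 7 carbonic anhydrases 6 were higher and 0 lower, among them Car4 (4.59 and 5.18), Car2 (3.00 and 2.57) and Car11 (1.26 and 1.57). Of 9 Vegf ligands and receptors 5 were higher and 1 lower, both lists beside the same background, and the higher ones included the ligand Vegfc (2.24 and 2.23) and the receptors Flt1 (1.83 and 2.09) and Kdr (1.56 and 2.01). Summed endothelial markers, which include Flt1 and Kdr, were at 90.0 to 125 TPM in knockdown tumors and 115 to 159 TPM in control tumors, against 5.68 to 9.60 TPM in knockdown culture and 5.33 to 8.50 TPM in control culture. Leukocyte and fibroblast markers differed as given above. The part of these host cells in the tumor levels was not tested.

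**Figure D3:**
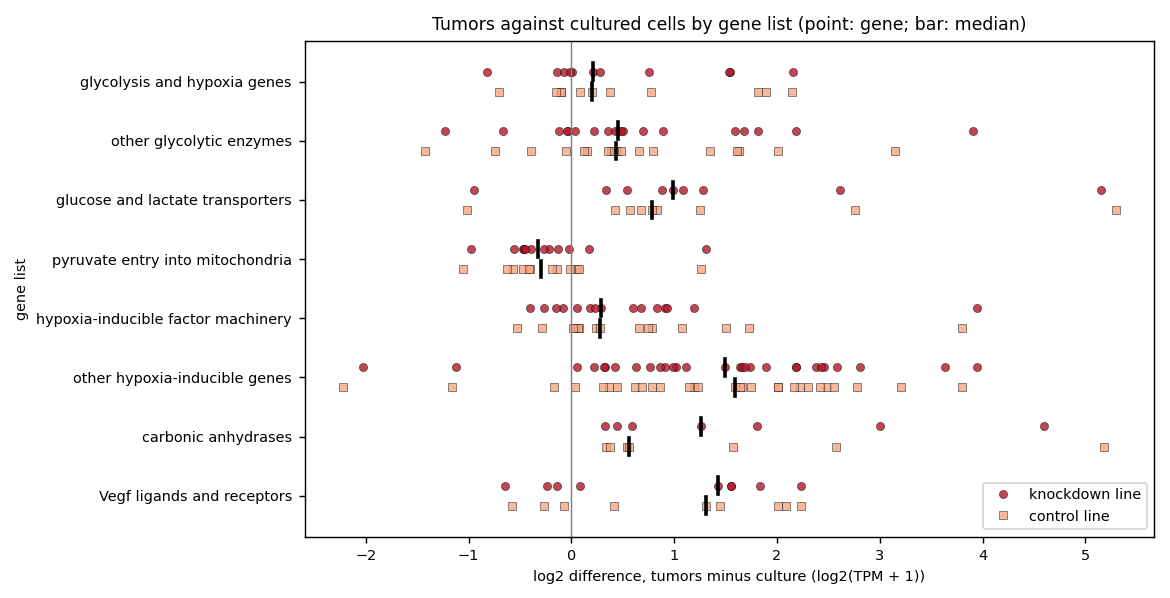
Difference between tumors and culture in log2(TPM + 1) for each gene of 8 lists (circles, knockdown line above; squares, control line below; bar, median of the list). Other hypoxia-inducible genes had the highest list medians, 1.49 and 1.59, and pyruvate entry into mitochondria was the list with negative medians, -0.33 and -0.29.

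Within the culture groups the 10 genes moved together from library to library. Knockdown culture 2 was the highest of its group for 11 of 11 rows, against 38.5% of 15381 genes, and control culture 3 was the highest of its group for 11 of 11 rows, against 41.3% of genes. The median row stood 0.33 above the mean of the other two libraries in knockdown culture 2 and 0.55 above it in control culture 3, on the log2(TPM + 1) scale, where the median of all genes stood 0.04 above it in both. The labels name no batch, and what sets these libraries apart was not tested.

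Ldha had 1930, 2570 and 1961 TPM in knockdown culture and 2099, 2028 and 2758 TPM in control culture. Pgk1 had 895, 1207 and 891 TPM in knockdown culture and 929, 903 and 1358 TPM in control culture. In each group the high library stood well apart from the other two, which lay close together. Aldoa had 1226, 1466 and 1190 TPM in knockdown culture and 1222, 1300 and 1609 TPM in control culture. Gapdh had 3559, 4092 and 3452 TPM in knockdown culture and 3666, 3724 and 4544 TPM in control culture. The same library was the highest for each gene, by a smaller factor. In tumors Ldha had 2070, 1979 and 2032 TPM with the knockdown and 2041, 2137 and 2176 TPM with the control hairpin. Pgk1 had 1170, 1185 and 1238 TPM in knockdown tumors and 1181, 1193 and 1219 TPM in control tumors. For Ldha and Pgk1 no tumor library stood apart as in culture. Replicate 3 was the highest in both kinds of tumor for Aldoa (1588 TPM with the knockdown and 1900 TPM with the control hairpin). The same held for Gapdh (3465 and 3856 TPM).

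The genes differed in how far they moved. Vegfa spanned a ratio of 2.21 between the highest and lowest knockdown culture library and 2.43 in control culture, Pdk1 1.79 and 2.25, and Pgk1 1.36 and 1.50. Eno1 hardly moved, with ratios of 1.08 and 1.06. In tumors 5 of the 6 enzymes spanned less than in culture of the same line: Pgk1 spanned 1.06 in knockdown tumors and 1.03 in control tumors, and Ldha 1.05 and 1.07. The exception was Eno1, with 1.05 in knockdown tumors but 1.11 in control tumors. Vegfa still spanned 2.26 and 1.45. Knockdown tumor 3 was the highest of its group for 8 of 11 rows, against 50.6% of genes, and control tumor 3 for 9 of 11, against 39.7%. The same libraries were the highest for 25 and 24 of 29 other hypoxia-inducible genes, for 10 of 10 endothelial markers in both and for 8 of 9 fibroblast markers in both. The part of these host cells in the levels of the 10 genes was not tested.

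Of 29 other hypoxia-inducible genes, knockdown culture 2 was the highest of its group for 22 and control culture 3 for 22. Bnip3, a mitophagy gene, had 59.4, 168 and 60.5 TPM in knockdown culture and 67.7, 60.6 and 203 TPM in control culture. Other glycolytic enzymes did so less evenly, with 11 of 19 for knockdown culture 2 and 12 of 19 for control culture 3. The phosphofructokinase Pfkp had 40.4, 90.7 and 31.6 TPM in knockdown culture and 33.5, 38.9 and 103 TPM in control culture. Bnip3 and Pfkp were singled out after their values were seen.

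By similarity of pattern, log2(TPM + 1) centred on the 4 groups was correlated over the 12 libraries with the mean of the 11 rows. The 5 closest genes outside the set were Pgm1 (Pearson r = 0.99, Spearman rho = 0.98), Col5a3 (0.99 and 0.99), Mxi1 (0.98 and 0.98), Gmppa (0.98 and 0.94) and Narf (0.98 and 0.98). Centred on the 2 tissues instead, they were Pgm1 (0.99), Pfkl (0.98), Ndrg2 (0.97), Fam114a1 (0.97) and Ndrg1 (0.97). Without knockdown culture 2 and control culture 3, which lay farthest out, Pearson r over the other 10 libraries was 0.97 for Pgm1, 0.95 for Col5a3, 0.92 for Mxi1, 0.88 for Gmppa and 0.91 for Narf. These values describe the libraries, which share their normalization to a fixed total, and the genes were picked as the closest of all.

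**Figure D4:**
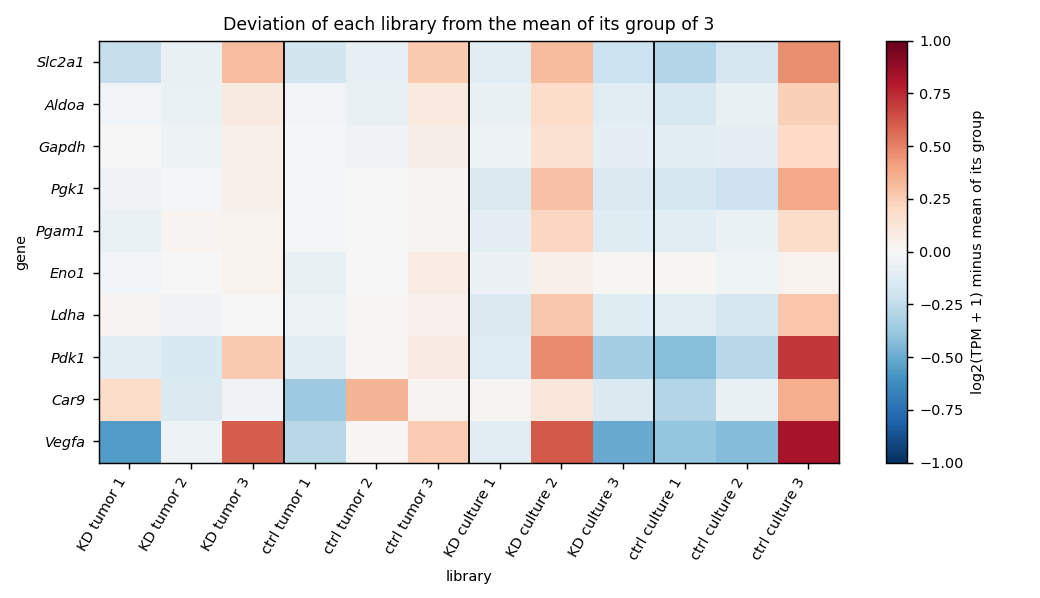
Deviation of each library from the mean of its group of 3, in log2(TPM + 1), for the 10 genes (rows) and 12 libraries (columns; red higher, blue lower). Knockdown culture 2 and control culture 3 were above their group mean for all 10 genes, most for Vegfa and Pdk1 and least for Eno1.

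Knockdown tumors were compared with control tumors to ask whether loss of St3gal3 goes with a change of these genes. No row was called, that is, none had a limma adjusted p under 0.05 (0 of 11), against 1.51% of 14915 genes tested (1.07% higher and 0.436% lower). With an unadjusted p under 0.05 there were 2 of 11, against 18.7% of genes. Knockdown tumors were lower without overlap for 4 of 11 rows, against 14.9% of genes, and higher without overlap for 0 of 11, against 9.81%. The share of 4 in 11 lay above its background, and none of the 4 passed the test. This overlap was counted in TPM only. The factors of median-of-ratios scaling were 1.04, 1.06 and 1.08 in control tumors and 0.987, 0.976 and 1.06 in knockdown tumors. Overlap was not recounted over all genes under that scaling, where narrow gaps can close. In knockdown tumor 2 and control tumor 1, Eno1 had 450 and 469 TPM and Pgam1 640 and 655 TPM. In proportion these values lay closer together than the factors of those libraries, 0.976 and 1.04. The gaps of Eno1 and Pgam1 thus close under these factors. Of the 11 rows 10 had a negative log2 change, as had 9005 of 14915 genes. The median log2 change was -0.08, against -0.05 for all genes.

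The 4 rows without overlap in TPM were all glycolytic enzymes. Aldoa had 1468, 1428 and 1588 TPM in knockdown tumors, against 1738, 1687 and 1900 TPM in control tumors. The highest knockdown tumor stayed below the lowest control tumor, with a log2 change of -0.25 (SE 0.06; adjusted p by limma = 0.117). Gapdh had 3334, 3230 and 3465 TPM in knockdown tumors, against 3644, 3606 and 3856 TPM in control tumors. The gap between the groups was again narrow, with a log2 change of -0.15 (SE 0.05; adjusted p by limma = 0.175). Eno1, with the tumor values given above, had a log2 change of -0.13 (SE 0.06; adjusted p by limma = 0.293). Pgam1 had 601, 640 and 645 TPM in knockdown tumors, against 655, 664 and 678 TPM in control tumors, a log2 change of -0.08 (SE 0.05; adjusted p by limma = 0.410).

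Eno1b, the copy of Eno1, was called lower in knockdown tumors, with a log2 change of -0.28 (SE 0.05; adjusted p by limma = 0.0494), a call that ended under 11 of 14 alternative settings. Summed with its copy, Eno1 had a log2 change of -0.21 (limma adjusted p = 0.0778), which was the lowest adjusted p of any of the 10 genes in tumors under any setting. Summed epithelial and ovarian markers were 2826, 2626 and 2560 TPM in knockdown tumors, against 3432, 3281 and 3227 TPM in control tumors. They were lower without overlap in TPM, as these enzymes were. Krt8 alone had 1145, 1034 and 994 TPM in knockdown tumors, against 1461, 1316 and 1247 TPM in control tumors. Of the 9 markers 5 were tested, and 4 were lower without overlap, against 14.9% of genes. Wt1 overlapped, with a log2 change of 0.23, and none was called. Skeletal muscle markers summed to 104, 16.2 and 80.8 TPM in knockdown tumors, against 3.88, 17.4 and 5.02 TPM in control tumors. The part of either in the enzyme levels was not tested. With knockdown tumors 1 and 3 left out, Aldoa had a log2 change of -0.31 and Gapdh one of -0.20, neither called.

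The largest changes in size were those of the transporter and the growth factor, but their replicates were widely spread. Vegfa had 82.0, 117 and 185 TPM in knockdown tumors, against 161, 198 and 233 TPM in control tumors. Knockdown tumor 3 lay above control tumor 1, and the log2 change of -0.68 (SE 0.33) had a limma adjusted p of 0.336. Slc2a1 likewise overlapped, as knockdown tumor 3 (237 TPM) stood above control tumors 1 and 2, with a log2 change of -0.37 (SE 0.17; adjusted p by limma = 0.311). Without knockdown tumor 3 these changes were -0.99 (limma adjusted p = 0.0938) and -0.52 (limma adjusted p = 0.118), and without knockdown tumor 1 they were -0.40 (limma adjusted p = 0.566) and -0.25 (limma adjusted p = 0.587). Among the other rows the log2 changes were small: -0.06 for Ldha (SE 0.05, limma adjusted p = 0.486), -0.06 for Pdk1 (SE 0.12, limma adjusted p = 0.811), 0.05 for Car9 (SE 0.19, limma adjusted p = 0.895), -0.02 for the second Aldoa row and -0.00059 for Pgk1 (SE 0.05, limma adjusted p = 0.996).

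**Figure D5:**
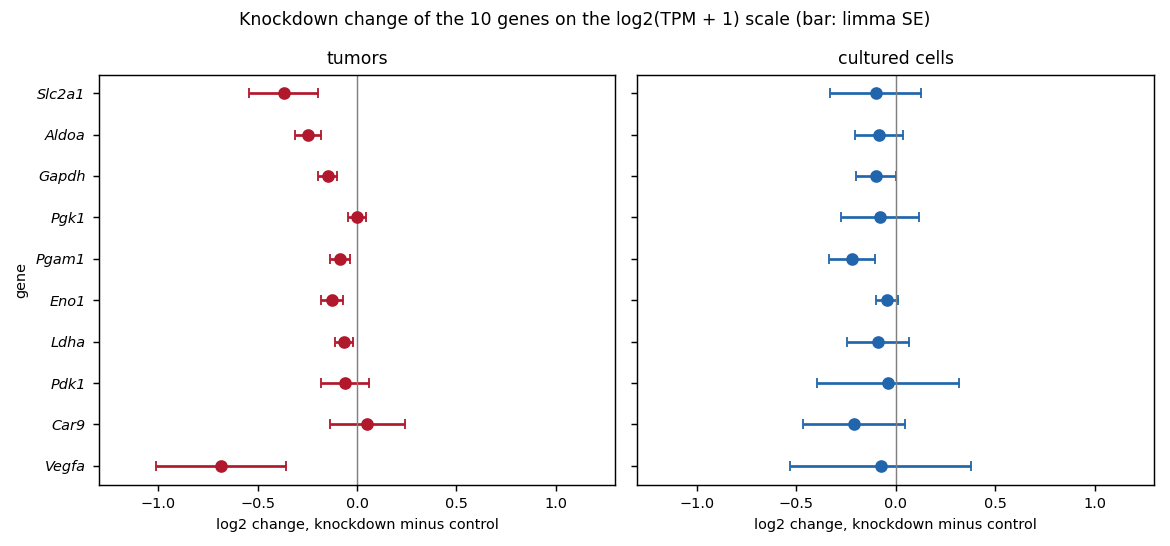
Log2 change of the 10 genes, knockdown minus control, in tumors (left) and cultured cells (right) on the log2(TPM + 1) scale, with limma SE as bars. Vegfa (-0.68) and Slc2a1 (-0.37) were the largest in tumors, the bars of Pgk1, Pdk1 and Car9 crossed 0 there, and no gene was called in either panel.

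In culture no row was called either (0 of 11), against 0.0296% of 13492 genes (0.0148% in each direction), and every limma adjusted p was 0.9999. With an unadjusted p under 0.05 there were 0 of 11, against 3.42% of genes, and the knockdown and control cells overlapped for all 11 rows, where 5.25% of genes were higher and 2.45% lower without overlap. The median log2 change was -0.09, against 0.02 for all genes, with 10 of 11 rows negative and 5706 of 13492 genes negative. Pgam1 came closest to a difference, with 597, 736 and 584 TPM in knockdown cells, against 683, 706 and 843 TPM in control cells. Knockdown culture 2 stood above 2 of the 3 control libraries, and the log2 change was -0.22 (SE 0.11, limma adjusted p = 0.9999). Without knockdown culture 2 the median was -0.23, and without control culture 3 it was 0.05, so each of these libraries moved it. The log2 changes of the other 9 genes ran from -0.21 for Car9 (SE 0.26) to -0.04 for Pdk1 (SE 0.36).

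The knockdown change in tumors was also compared with that in culture by an interaction term over all 12 libraries. No row was called (0 of 11), against 0.754% of 15381 genes (0.572% higher and 0.182% lower), and 0 of 11 had an unadjusted p under 0.05, against 11.1% of genes. The lowest limma adjusted p was 0.708, for Aldoa and Eno1. The largest difference was that of Vegfa, -0.61 (SE 0.60, limma adjusted p = 0.727), followed by Slc2a1 at -0.27 (SE 0.32) and Car9 at 0.26 (SE 0.29). The standard errors were as large as or near the differences, so a change of this size was not detectable with 3 libraries a group.

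Of 96 other genes of these 7 lists tested in tumors, each counted once, 2 were called, or 2.08%, a share near the 1.51% of all genes. In culture 0 of 78 were called, against 0.0296% of all genes. Among 19 other glycolytic enzymes Hk3 rose in knockdown tumors, with 14.2, 13.4 and 14.5 TPM, against 7.14, 8.61 and 7.98 TPM in control tumors. The groups were well apart, with a log2 change of 0.76 (SE 0.10; adjusted p by limma = 0.0167), and Hk3 was listed at 0 in all 6 culture libraries. The summed leukocyte markers overlapped between the tumors, but most of that sum was Lyz2, and 4 of the 11 leukocyte markers tested were higher in knockdown tumors without overlap, like Hk3, against 9.81% of genes. They were Ptprc (23.7 to 32.0 TPM in knockdown tumors, against 17.3 to 20.6 TPM in control tumors), Cd3e (4.33 to 6.03 against 1.18 to 2.66 TPM), Cd8a (4.62 to 5.38 against 0.24 to 2.75 TPM) and Cd68 (86.4 to 91.8 against 75.2 to 86.3 TPM). The others overlapped, and 3 of the 11 had a negative log2 change: Lyz2 (-0.14), Cd14 (-0.04) and Csf1r (-0.03). None of the 11 was called (lowest limma adjusted p = 0.0853), and their part in the level of Hk3 was not tested. The call for Hk3 ended under 5 of 14 alternatives, among them leaving out control tumor 3, knockdown tumor 1 or knockdown tumor 2, with a limma adjusted p of up to 0.238. Among 15 genes of the hypoxia-inducible factor machinery Arnt2 fell in knockdown tumors, with 0.71, 0.59 and 0.74 TPM, against 2.28, 3.01 and 2.16 TPM in control tumors. Its log2 change was -1.05 (SE 0.16, limma adjusted p = 0.0323), and the call ended under 9 of 14 alternatives, including the omission of any single tumor library. In culture Arnt2 was at most 0.10 TPM, so for it and Hk3 the difference between tissues (-1.05 and 0.76) repeats the tumor change and adds nothing to it.

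No other member of the 7 pathway lists passed in tumors. The smallest p-values belonged to Bsg, the chaperone of the lactate transporters, with a log2 change of -0.23 (limma adjusted p = 0.0957), the collagen hydroxylase P4ha1 (-0.52, limma adjusted p = 0.101) and the repressor Bhlhe40 (-0.51, limma adjusted p = 0.118). For other hypoxia-inducible genes the median log2 change was -0.06 over 29 genes in tumors and -0.11 over 26 in culture, and for other glycolytic enzymes it was 0.03 over 19 and -0.06 over 16. In tumors the values also included -0.29 for Pdk2 (limma adjusted p = 0.158) and 0.32 for Slc16a3 (limma adjusted p = 0.190). They were -0.23 for Gpi1, the isomerase after hexokinase (limma adjusted p = 0.204), and -0.46 for Kdr (limma adjusted p = 0.216). Elob (0.19, limma adjusted p = 0.135) and Car2 (0.63, limma adjusted p = 0.187) were higher without overlap. Car4 (-0.59, limma adjusted p = 0.281), Flt1 (-0.34, limma adjusted p = 0.219) and Dlat (-0.18, limma adjusted p = 0.331) had negative changes. Of the 10 endothelial markers, which include Kdr, 10 had a negative log2 change in tumors (median -0.33). Of these 10, 2 were lower without overlap, against 14.9% of genes. Their sum overlapped, and 0 were called, against 1.51% of genes. Of 9 fibroblast markers 6 had a negative log2 change (median -0.37), and 2 were lower without overlap, against the same 14.9% of genes. Only 1 was called, the surface protease Fap (-0.89, limma adjusted p = 0.0148), against 0.436% of genes called lower. The part of these cells in the changes listed was not tested.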

How the data were processed

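Groups and replicate numbers came from the sample titles. The authors deposited TPM per gene, 1 table a sample, per the file headers, and every table has the same sum to rounding. Per the submitters' processing notes the build was GRCm39 and the tools included fastp, HISAT and RSEM, whose roles, versions and strand setting were not given. Estimates from RSEM divide reads among near-identical copies, which leaves Eno1 and Eno1b uncertain. TPM keeps no depth, so no counting interval is given.

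The 10 genes, the lists and the tests were chosen with earlier results of these data known. Genes whose mean reached 1 TPM in a group of the fit were tested with limma 3.58.1 (R 4.3.3, trended and robust empirical Bayes, two-sided) on log2(TPM + 1), a scale that understates changes of low genes, per tissue and, for the difference, over all 12 libraries. Calls needed a p under 0.05 after Benjamini-Hochberg adjustment over every gene tested. Every adjusted p comes from limma. The procedure was tested on simulated data with independent noise for each gene, which held no shifts shared by the genes of a library. Tumors against culture has SE from the spread of the groups and no test.

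Named besides the 10 genes are St3gal3, per pathway list the called genes (up to 4, or else the 2 of smallest p), the 3 with the largest difference between control tumors and control culture on the same side in both lines, and the 5 genes of closest pattern. Not every gene that the rule allows is printed. Eno1b, Eno3, Bnip3, Pfkp, Pdk3, Ldhb, Pgk2, Vhl, Egln1, Arnt, Fap and the named leukocyte markers were chosen after their values were seen. Promoters came from RefSeq (GRCm38.p6), with all 10 names matched. Figures were drawn with matplotlib 3.10.9.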

Additional observations from a re-analysis of the deposited data

How the results depend on the processing

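In all alternatives run, 0 of the 11 rows were called in culture, in tumors or for the difference. The lowest limma adjusted p was 0.925 in culture (Pgam1, no filter on low values), 0.0778 in tumors (Eno1 summed with its copy) and 0.423 for the difference (Aldoa without control culture 3). The settings tried were a pseudocount of 0.1, no filter, at least 1 TPM in 3 libraries, median-of-ratios scaling, all 4 groups in one fit, a replicate block, and leaving out each library. Leaving out knockdown tumors 1 and 3 leaves 1 library, which is assumed to vary like the others. Summing copies, and leaving out control culture 3 with knockdown culture 2, were added after seeing the data. The cause of the shifts below was not tested.

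Under median-of-ratios scaling the median log2 change of the rows was -0.0268 in tumors and 0.0534 for the difference. Signs turned there for Pgk1 (0.0558) and the second Aldoa row (0.0198) in tumors and for Pdk1 (0.0777), Gapdh (0.0534) and Eno1 (0.0181) in the difference. Without control culture 3 and knockdown culture 2, Pdk1 (0.077) and Vegfa (0.0276) turned in culture, and without knockdown tumors 1 and 3, Car9 (-0.0904) and the second Aldoa row (0.3262) turned in tumors.

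Leaving out 1 library gave medians from -0.2257 to 0.0488 in culture, -0.1512 to -0.07 in tumors and -0.1452 to 0.0848 for the difference. Signs turned in culture for Pdk1 (-0.2752 to 0.3123), Vegfa (-0.3831 to 0.3353), Slc2a1 (-0.26 to 0.1293), Aldoa (-0.179 to 0.0314), Pgk1 (-0.2257 to 0.1081), Ldha (-0.2244 to 0.0488) and the second Aldoa row (-0.1236 to 0.3406). They turned in tumors for Pdk1 (-0.1902 to 0.0166), Car9 (-0.1286 to 0.2214), Pgk1 (-0.0245 to 0.0158) and the second Aldoa row (-0.1929 to 0.1176). For the difference they turned for Pdk1 (-0.371 to 0.2165), Gapdh (-0.1452 to 0.0286), Pgk1 (-0.1087 to 0.2251), Ldha (-0.1119 to 0.1613) and the second Aldoa row (-0.3605 to 0.1037).

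For tumors against culture, median-of-ratios scaling gave a control-line median of 0.0631 (all genes 0.0637, against 0.1781 in TPM) and 2 rows lower without overlap in both lines, as did summing copies. Without control culture 3 and knockdown culture 2, the medians were 0.3056 (knockdown line) and 0.3864 (control line). Then 6 rows were higher without overlap in both lines, against 38.6% of all genes: Slc2a1, Vegfa, Car9, Pdk1, Aldoa and Pgk1. Both libraries were left out because they were the highest of their groups for these rows, which favours higher medians and a higher count. Leaving out 1 library gave medians of 0.1552 to 0.3056 (knockdown line) and 0.0927 to 0.3864 (control line), and 3 to 4 rows higher.

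Over all genes, limma called 225 in tumors, 4 in culture and 116 for the difference. With the replicate block it called 2, 4 and 0, and the medians of the rows did not move. Correlations of same-numbered libraries ran from -0.1442 to 0.0489 in tumors and -0.1553 to -0.0597 in culture, so the numbers are not taken to pair the libraries.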
